A study of Mus musculus with 2 samples.

Results

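The G2 and mitosis genes described here are 38 genes whose products prepare and carry out cell division: cyclins and mitotic kinases, chromosome proteins, kinetochore and spindle proteins and the ubiquitin machinery that ends mitosis. They were taken from a list of symbols and looked up in the deposited table, which had a row for all 38 among its 18088 genes. Every member had at least 30 summed values, the minimum used here for a ratio.

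The tissue was the medial ganglionic eminence (MGE), a transient swelling of the ventral forebrain that gives rise to cortical interneurons and to projection neurons of the basal ganglia. It was dissected from CD-1 mouse embryos at stage E11.5, and cells were profiled on the 10x Chromium platform as 1 pooled RNA library. The pool carried 6 MULTI-seq sample barcodes for reporter tissue of 2 enhancers, hs192 and hs799. Of these barcodes, 4 marked GFP-gated cells (both enhancers) and 2 marked ungated cells (both enhancers), so the gate can set the share of any class, and no map from cells to barcodes was used here.

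In the MGE, progenitors of the ventricular zone keep the Notch effector Hes5 and divide at the ventricle. Their daughters switch on Dlx2, many divide again in the subventricular zone, and neurons leave the cycle as they build neuronal tubulin, Tubb3. In each division, cyclin A and cyclin B bound to Cdk1 drive entry into mitosis, Plk1 and the Aurora kinases build the spindle, and the anaphase-promoting complex (APC/C) with Cdc20 and Ube2c then marks cyclin B and securin for destruction. Transcription of these genes peaks late in the cycle and is known to depend on the MuvB complex with B-Myb (Mybl2) and Foxm1, which acts through the CHR element (TTTGAA or TTTAAA), and on NF-Y, which binds CCAAT boxes.

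Classes of cells were cut from Hes5, Dlx2, Tubb3 and a list of 34 S phase genes, and no member was used. Tubb3-high neurons (2639 cells, 66.0% of 4001) had Tubb3 of at least 7.37 per 10000 summed values of the cell and Hes5 below 2.90. Dlx2 cycling cells (77 cells, 1.92%) had Dlx2 of at least 0.963, Hes5 and Tubb3 below their thresholds and an S phase list sum of at least 20.7. Hes5 progenitors (763 cells, 19.1%) had Hes5 at or above its threshold and Dlx2 and Tubb3 below theirs. The other cells were 231 with Hes5 and Dlx2, 141 with Hes5 and Tubb3, 139 below all 3 thresholds and 11 with Dlx2 but without the S phase sum. These classes are ranges of a continuous level and not cell types: within 0.25 log2 units of the threshold lay 137 cells for Tubb3, 463 for Dlx2, 117 for Hes5 and 107 for the S phase list.

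Other markers separated the classes in the direction of their names. Stmn2 stood at 20.7 per 10000 in Tubb3-high neurons, 1.63 in Dlx2 cycling cells and 0.602 in Hes5 progenitors. The median level of Hes6, a neurogenic relative of Hes5, was 1.56 in neurons, 5.12 in Dlx2 cycling cells and 0.732 in Hes5 progenitors, and the median Nes level was 0 in neurons, 3.50 in Dlx2 cycling cells and 8.14 in Hes5 progenitors. Of 16 genes that mark endothelium, blood, microglia, fibroblasts, mural cells or choroid plexus, 7 had a row, and their summed level was 1.64 per 10000 in neurons, 1.23 in Dlx2 cycling cells and 1.27 in Hes5 progenitors. Deposited values are whole numbers made by the authors from molecule counts, with cell totals between 10475 and 14196 (medians 12009 in neurons, 13405 in Dlx2 cycling cells and 13522 in Hes5 progenitors). They are not raw counts, so the depth per cell is unknown. With 1 library there is no replicate check: standard deviations (SD) describe the spread of cells, no test between classes was possible, and a difference was counted when the ratio of levels reached 2-fold. A level is the summed value of a gene per 10000 summed values of the class. It is not adjusted for transcript length, so levels are compared between classes for 1 gene and not between genes.

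The upstream sequence of 8 members is shown because it carries, or in 1 case lacks, the elements through which this module is known to be transcribed together. The sequences are the 100 bases before the RefSeq gene start on GRCm38.p6, written 5′ to 3′ in the direction of transcription. Capitals mark CCAAT (or ATTGG, its complement), TTTGAA (or TTCAAA) and TTTAAA, and were placed by exact letter search on both strands. The windows are Cdk1 at chr10:69352913-69353012 (minus strand), Ccnb1 at chr13:100786487-100786586 (minus strand), Ccnb2 at chr9:70421555-70421654 (minus strand), Cdc20 at chr4:118437344-118437443 (minus strand), Ube2c at chr2:164769829-164769928 (plus strand), Top2a at chr11:99024190-99024289 (minus strand), Kif11 at chr19:37376282-37376381 (plus strand) and Knstrn at chr2:118813903-118814002 (plus strand).
Cdk1: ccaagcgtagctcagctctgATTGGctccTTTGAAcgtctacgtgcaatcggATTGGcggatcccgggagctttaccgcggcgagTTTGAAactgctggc
Ccnb1: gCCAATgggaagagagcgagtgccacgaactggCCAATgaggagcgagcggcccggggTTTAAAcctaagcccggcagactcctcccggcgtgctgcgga
Ccnb2: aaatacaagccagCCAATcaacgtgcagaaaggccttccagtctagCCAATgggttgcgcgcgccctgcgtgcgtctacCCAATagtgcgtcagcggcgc
Cdc20: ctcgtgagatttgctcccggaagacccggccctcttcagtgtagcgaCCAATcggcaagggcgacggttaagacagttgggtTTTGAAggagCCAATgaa
Ube2c: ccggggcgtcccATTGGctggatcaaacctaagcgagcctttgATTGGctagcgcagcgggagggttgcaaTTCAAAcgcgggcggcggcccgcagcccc
Top2a: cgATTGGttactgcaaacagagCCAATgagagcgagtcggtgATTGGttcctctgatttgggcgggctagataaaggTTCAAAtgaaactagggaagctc
Kif11: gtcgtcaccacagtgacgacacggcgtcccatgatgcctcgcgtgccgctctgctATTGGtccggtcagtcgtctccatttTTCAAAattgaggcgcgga
Knstrn: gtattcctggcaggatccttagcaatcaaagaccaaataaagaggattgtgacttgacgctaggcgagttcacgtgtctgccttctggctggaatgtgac

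Within these windows Cdk1, which encodes the kinase that starts mitosis, held 2 CCAAT and 2 TTTGAA matches. Cdc20 and Ube2c, the activator and the ubiquitin-conjugating enzyme of the APC/C, each held 2 CCAAT and 1 TTTGAA. Ccnb1 and Ccnb2 encode the paired B-type cyclins: Ccnb1 held 2 CCAAT and 1 TTTAAA, and Ccnb2 held 3 CCAAT and neither of the other motifs. Beyond these 100 bases, the 300-base window of Ccnb2 also held TTTGAA. Top2a, the topoisomerase that untangles sister chromatids, held 3 CCAAT and 1 TTTGAA, and Kif11, the kinesin that pushes spindle poles apart, held 1 of each. Knstrn, a spindle and kinetochore protein, held none of the 3 motifs in this window.

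Promoter windows of 300 bases (250 before to 50 after the start) were found for 31 of the 38 members, and for 27025 genes in all. The windows of Ccna2, Smc4, Tpx2, Pimreg, Incenp, Aurkb and Kif20a were not analysed here. CCAAT was present in 24 of 31 members (77.4%), against 41.1% of all genes. TTTGAA was present in 20 members (64.5%), against 20.2% of all genes, and TTTAAA in 10 (32.3%), against 14.9%. CCAAT and TTTGAA together were present in 17 members (54.8%), against 7.97% of all genes. In the 34-gene S phase list, 2 of the 26 genes with a window held both, and in a list of 52 other G2 and mitosis genes, 27 of 46 did. TTTAAA was present in 4 of the 26 S phase genes (15.4%) and in only 3 of the 46 other G2 and mitosis genes (6.52%). Over all member windows, 1 pair of matches overlapped, both of CCAAT, on opposite strands of Ube2c. A match describes letters and not a bound site. The 17 members with both motifs had, in neurons against Hes5 progenitors, a median log2 ratio of -2.71, and the 14 without both had -2.65.

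The whole module was lower in Tubb3-high neurons than in both dividing classes. A neuron had a value for a median of 4 of the 38 members (quartiles 3 to 5), a Dlx2 cycling cell for 24 (18 to 32) and a Hes5 progenitor for 27 (20 to 33.5). At least 19 members were detected in 6.56% of neurons (exact 95% binomial interval 5.64% to 7.57%), 71.4% of Dlx2 cycling cells (60.0% to 81.2%) and 79.6% of Hes5 progenitors (76.5% to 82.4%). After each cell was thinned to 10000 values, these shares were 6.25% of neurons, 63.6% of Dlx2 cycling cells and 72.1% of Hes5 progenitors. Thinning evens the totals of the deposited values and not the depth per cell, which is unknown. Intervals cover the counting of cells only. The summed level of the 38 genes was 17.6 per 10000 in neurons (SD 48.6 over cells), 92.4 in Dlx2 cycling cells (SD 65.4) and 101.0 in Hes5 progenitors (SD 66.7).

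**Figure D1:**
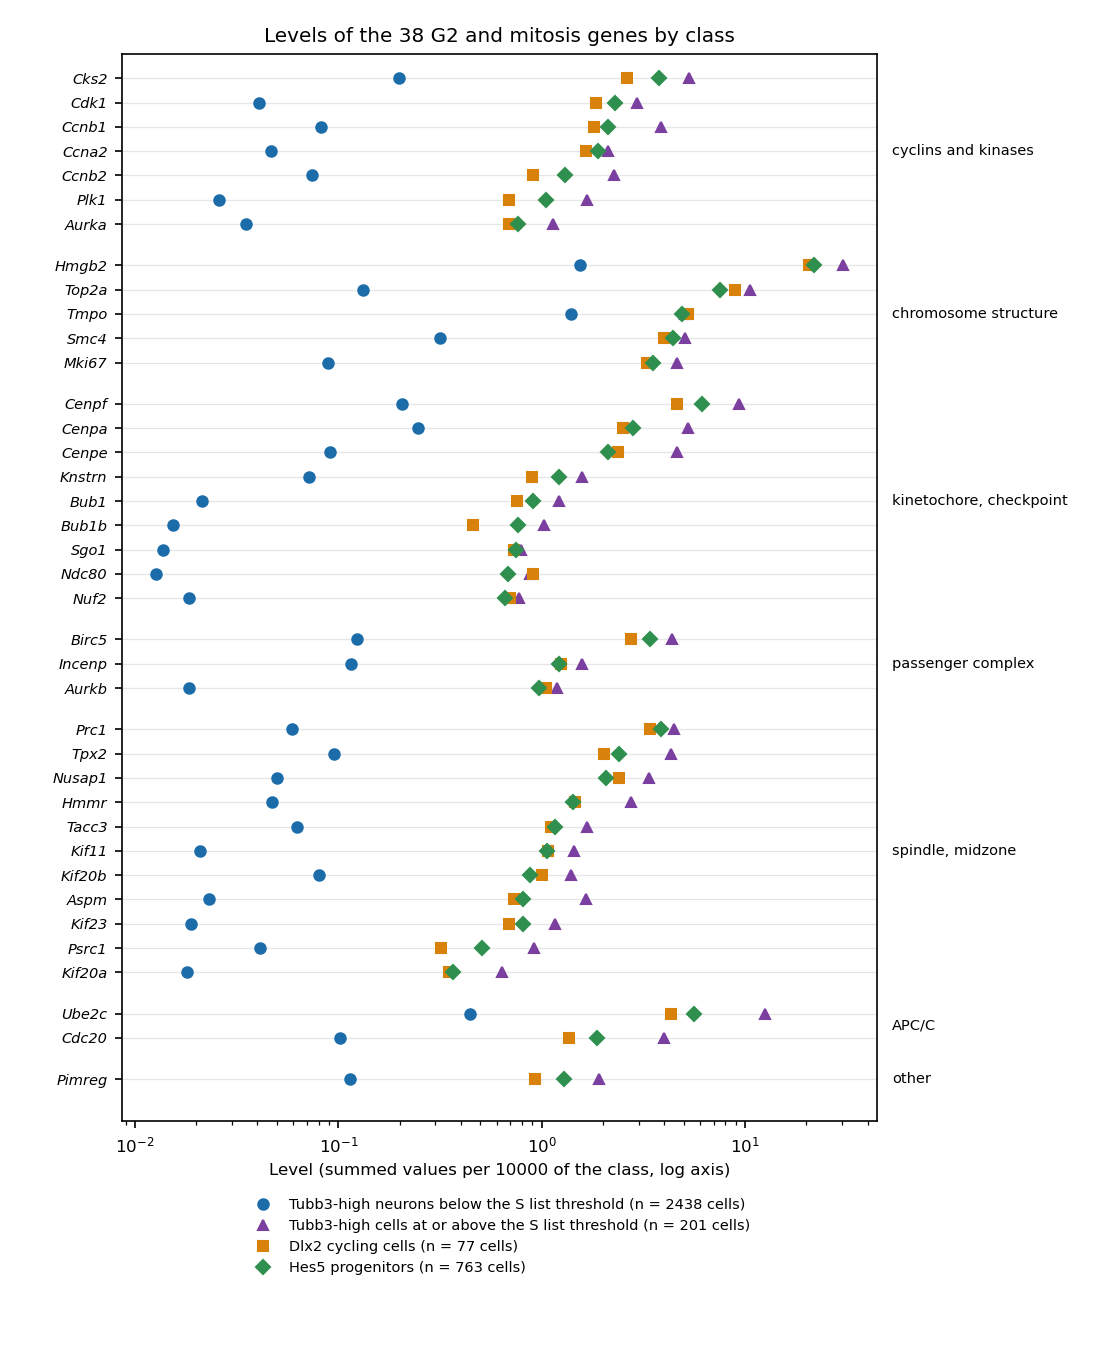
Level of each member (x axis, summed values per 10000 of the class, log axis) in Tubb3-high neurons below the S phase list threshold, Tubb3-high cells at or above it, Dlx2 cycling cells and Hes5 progenitors, grouped by role. The 2438 neurons below the threshold lie left of the other groups for all 38 members, Tmpo and Hmgb2 stand at 1.39 and 1.54 there, and the 201 Tubb3-high cells above the threshold lie right of Hes5 progenitors throughout.

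All 38 members were at least 2-fold lower in Tubb3-high neurons than in Hes5 progenitors, where 22.6% of 14889 genes were. Their median ratio was 0.159, a log2 ratio of -2.65, beside a median log2 ratio of -0.15 over all genes. The size rested on which cells were called neurons: with classes from clusters the median ratio was 0.0227 (built without cell cycle genes) or 0.0215 (with all variable genes). In both, all 38 members remained at least 2-fold lower, and the ratios of 37 members moved by over 1.5 times, so the ratios per gene below hold for the threshold classes. Against Dlx2 cycling cells all 38 were also at least 2-fold lower, where 16.4% of 13916 genes were, with a median ratio of 0.185. The 2 comparisons share the neurons.

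All 7 cyclins and mitotic kinases were lower in neurons. Cks2, a small protein that docks on Cdk1, stood at 0.607 per 10000 in neurons (SD 1.97), 2.64 in Dlx2 cycling cells (SD 3.22) and 3.79 in Hes5 progenitors (SD 3.64). Cdk1 itself stood at 0.273 per 10000 in neurons (SD 1.18), 1.84 in Dlx2 cycling cells (SD 1.92) and 2.30 in Hes5 progenitors (SD 2.36). Ccnb1 stood at 0.384 per 10000 in neurons (SD 1.54), 1.81 in Dlx2 cycling cells (SD 2.67) and 2.12 in Hes5 progenitors (SD 2.39). Their ratios of neurons to Hes5 progenitors were 0.160, 0.119 and 0.181, and the group ran from 0.112 for Ccna2, which encodes cyclin A, to 0.192 for Ccnb2. In the 2438 neurons below the S phase list threshold, the group ran from 0.0177 for Cdk1 to 0.0574 for Ccnb2. A pseudogene of Ccnb2 has its own row in the table, so reads of the pair may have been divided between them. Plk1, the kinase that matures centrosomes and promotes cytokinesis, stood at 0.157 per 10000 in neurons, 0.687 in Dlx2 cycling cells and 1.04 in Hes5 progenitors. Aurka, the spindle-pole Aurora kinase, stood at 0.123 in neurons, 0.687 in Dlx2 cycling cells and 0.760 in Hes5 progenitors.

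All 5 chromosome proteins were lower in neurons, but Hmgb2 and Tmpo still had a value in most of them. Hmgb2, a DNA-bending high-mobility-group protein, stood at 3.83 per 10000 in neurons (SD 9.40), 20.5 in Dlx2 cycling cells (SD 10.1) and 21.8 in Hes5 progenitors (SD 8.84). It had a value in 70.4% of neurons, 100% of Dlx2 cycling cells and 99.7% of Hes5 progenitors. Tmpo, the nuclear lamina protein thymopoietin, stood at 1.68 per 10000 in neurons (SD 1.69), 5.27 in Dlx2 cycling cells (SD 2.65) and 4.90 in Hes5 progenitors (SD 2.16), and its neuron to Hes5 progenitor ratio of 0.343 was the highest of the 38. Top2a stood at 0.971 per 10000 in neurons (SD 4.09), 8.95 in Dlx2 cycling cells (SD 8.35) and 7.50 in Hes5 progenitors (SD 7.37), with a ratio of 0.129. Smc4, a condensin subunit, and Mki67, which coats mitotic chromosomes and keeps them apart, had ratios of 0.157 and 0.128.

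Kinetochore and checkpoint genes had a median ratio of 0.130 in neurons against Hes5 progenitors. Cenpf, a large kinetochore protein, stood at 0.934 per 10000 in neurons (SD 3.72), 4.60 in Dlx2 cycling cells (SD 5.98) and 6.12 in Hes5 progenitors (SD 6.98). Cenpa, the histone H3 variant of centromeres, stood at 0.645 per 10000 in neurons (SD 1.99), 2.52 in Dlx2 cycling cells (SD 2.72) and 2.81 in Hes5 progenitors (SD 2.64). Cenpe, a kinesin that carries chromosomes to the metaphase plate, stood at 0.452 per 10000 in neurons (SD 1.72), 2.36 in Dlx2 cycling cells (SD 2.95) and 2.12 in Hes5 progenitors (SD 2.54). Sgo1, which protects centromeric cohesin, had the lowest neuron to Hes5 progenitor ratio of the 38 at 0.101. The other 5 genes of this group (Ndc80, Nuf2, Bub1, Bub1b and Knstrn) had ratios between 0.119 and 0.159.

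The chromosomal passenger complex corrects faulty attachments and later directs cytokinesis, and its 3 measured members all were lower in neurons. Birc5, or survivin, stood at 0.462 per 10000 in neurons (SD 1.58), 2.75 in Dlx2 cycling cells (SD 2.40) and 3.42 in Hes5 progenitors (SD 2.53). Incenp, the scaffold, stood at 0.232 per 10000 in neurons (SD 0.687), 1.24 in Dlx2 cycling cells (SD 1.41) and 1.22 in Hes5 progenitors (SD 1.36). Aurkb, the kinase, stood at 0.112 per 10000 in neurons (SD 0.526), 1.06 in Dlx2 cycling cells (SD 1.25) and 0.973 in Hes5 progenitors (SD 1.15). The ratio of neurons to Hes5 progenitors was 0.189 for Incenp and 0.116 for Aurkb.

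Among the 11 spindle and midzone genes the ratio of neurons to Hes5 progenitors ran from 0.107 for Prc1 to 0.220 for Psrc1. Prc1, which bundles antiparallel microtubules in the midzone, stood at 0.411 per 10000 in neurons (SD 1.93), 3.40 in Dlx2 cycling cells (SD 4.01) and 3.84 in Hes5 progenitors (SD 4.83). Tpx2, a spindle assembly factor that activates Aurora A, stood at 0.432 per 10000 in neurons (SD 1.58), 2.02 in Dlx2 cycling cells (SD 2.12) and 2.39 in Hes5 progenitors (SD 2.50). Nusap1, a microtubule-bundling spindle protein, stood at 0.314 per 10000 in neurons (SD 1.36), 2.41 in Dlx2 cycling cells (SD 2.79) and 2.07 in Hes5 progenitors (SD 2.64). The other spindle genes were Tacc3, Kif11, Kif23, Kif20a, Kif20b, Hmmr and Aspm, the last known for its role in spindle orientation and brain size, with ratios between 0.126 and 0.212.

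The APC/C genes Ube2c and Cdc20 were lower in neurons by smaller factors than most members. Ube2c stood at 1.41 per 10000 in neurons (SD 4.99), 4.34 in Dlx2 cycling cells (SD 6.28) and 5.58 in Hes5 progenitors (SD 7.54), a neuron to Hes5 progenitor ratio of 0.253. Cdc20 stood at 0.414 per 10000 in neurons (SD 1.62), 1.35 in Dlx2 cycling cells (SD 2.38) and 1.87 in Hes5 progenitors (SD 2.41), a ratio of 0.222. Pimreg, a mitotic regulator that binds PICALM, stood at 0.258 per 10000 in neurons (SD 0.795), 0.926 in Dlx2 cycling cells (SD 1.29) and 1.29 in Hes5 progenitors (SD 1.38).

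Most of the summed value in neurons sat in few cells. Of the 2639 neurons, 201 (7.62%) reached the S phase list threshold, and these held 68.1% of all member values of the class, from 24.0% for Tmpo to 87.4% for Top2a. The other 2438 neurons had a value for a median of 3 members, and 0.615% of them (0.345% to 1.01%) had at least 19. The 201 cells had a median of 31 members (quartiles 20 to 36), and 78.6% of them (72.3% to 84.1%) had at least 19, or 76.1% after thinning. No member was found in 25 neurons, all below the S phase threshold.

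**Figure D2:**
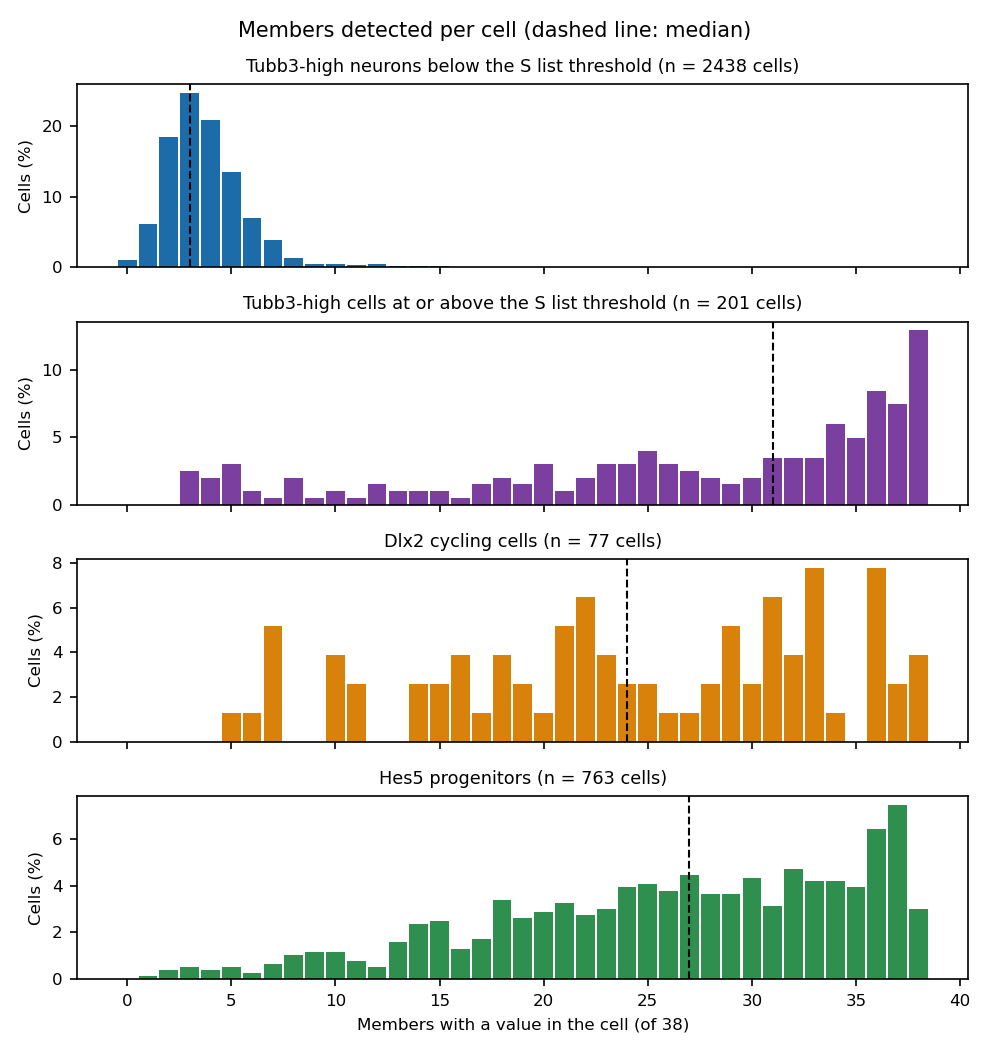
Share of cells (y axis, percent) by the number of members with a value in the cell (x axis, of 38), for Tubb3-high neurons below the S phase list threshold, Tubb3-high cells at or above it, Dlx2 cycling cells and Hes5 progenitors. The dashed lines mark medians of 3, 31, 24 and 27 members, and few neurons below the threshold reach 10 members.

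In the 2438 neurons below the threshold, levels against Hes5 progenitors had a median ratio of 0.0373. All 38 members were at least 2-fold lower, as were 23.5% of 14769 genes. The threshold was applied to the neurons only, after the data were seen, and 750 of the 763 Hes5 progenitors pass it. The lower levels are thus partly set by the choice of cells, and these values are a description. The lowest ratio was 0.0154 for Prc1. Tmpo stood apart with 1.39 per 10000 (SD 1.21) and a ratio of 0.283, and had a value in 78.3% of these neurons against 99.6% of Hes5 progenitors (70.9% against 98.6% after thinning). The next ratios were 0.0941 for Incenp and 0.0924 for Kif20b. Hmgb2 had a value in 67.9% of these neurons at a level of 1.54 per 10000 and a ratio of 0.0707. At the other end Bub1b, a spindle checkpoint protein, had a value in 1.44% of these neurons and Ndc80, which binds the microtubule at the kinetochore, in 1.48%. Neurons are the class expected to lack most of these genes, and the share of them with a value thus ran from 1.44% to 78.3% between members. What RNA free in the suspension gave was not tested. Median cell totals were 11964.5 in these neurons and 13522 in Hes5 progenitors.

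The 201 Tubb3-high cells above the S phase threshold carried the module at high levels. All 38 members stood above their level in Hes5 progenitors, with a median ratio of 1.42, from 1.03 for Tmpo to 2.25 for Ube2c. Ube2c, Cenpe, Cdc20 and Aspm were at least 2-fold higher, where 5.47% of 12283 genes were, and no member was 2-fold lower, where 13.2% of genes were. Ube2c stood at 12.5 per 10000 in these cells (SD 12.4) and 5.58 in Hes5 progenitors (SD 7.54). Cdc20 stood at 4.01 in these cells (SD 4.02) and 1.87 in Hes5 progenitors (SD 2.41). In contrast the S phase list had a median ratio of 0.651 there, although the cells were chosen for a minimum of it, and of the 52 other G2 and mitosis genes 42 lay above 1. These 201 cells had a median Tubb3 of 15.4, Dlx2 of 5.03 and Hes5 of 0.735 per 10000, a Stmn2 level of 4.89 and a Dcx level of 1.16, against 20.7 and 4.49 for the last pair in all Tubb3-high neurons. Of them, 181 were at or above the Dlx2 threshold. A doublet caller marked 2 of them and 6 cells of 4001 (0.150%) in all, with its expected rate set to 5%. Whether the caller works on these values, which are not raw counts, was not tested. Whether some of these barcodes held a pair of cells was not tested.

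Along the Tubb3 level itself, the number of members detected changed within a narrow range. Cells with Tubb3 under 1 per 10000 had a median of 28 members, those from 2 to 4 also 28, those from 4 to 8 had 20 and those from 8 to 16 had 6. At 16 to 32 the median was 4, and at 32 to 64 it was 3. The spread was widest between 8 and 16, where the quartiles were 4 and 25 members, 32.4% of 367 cells had at least 19 and 40.9% reached the S phase threshold. At 32 to 64, 0.812% of 1108 cells had at least 19.

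**Figure D3:**
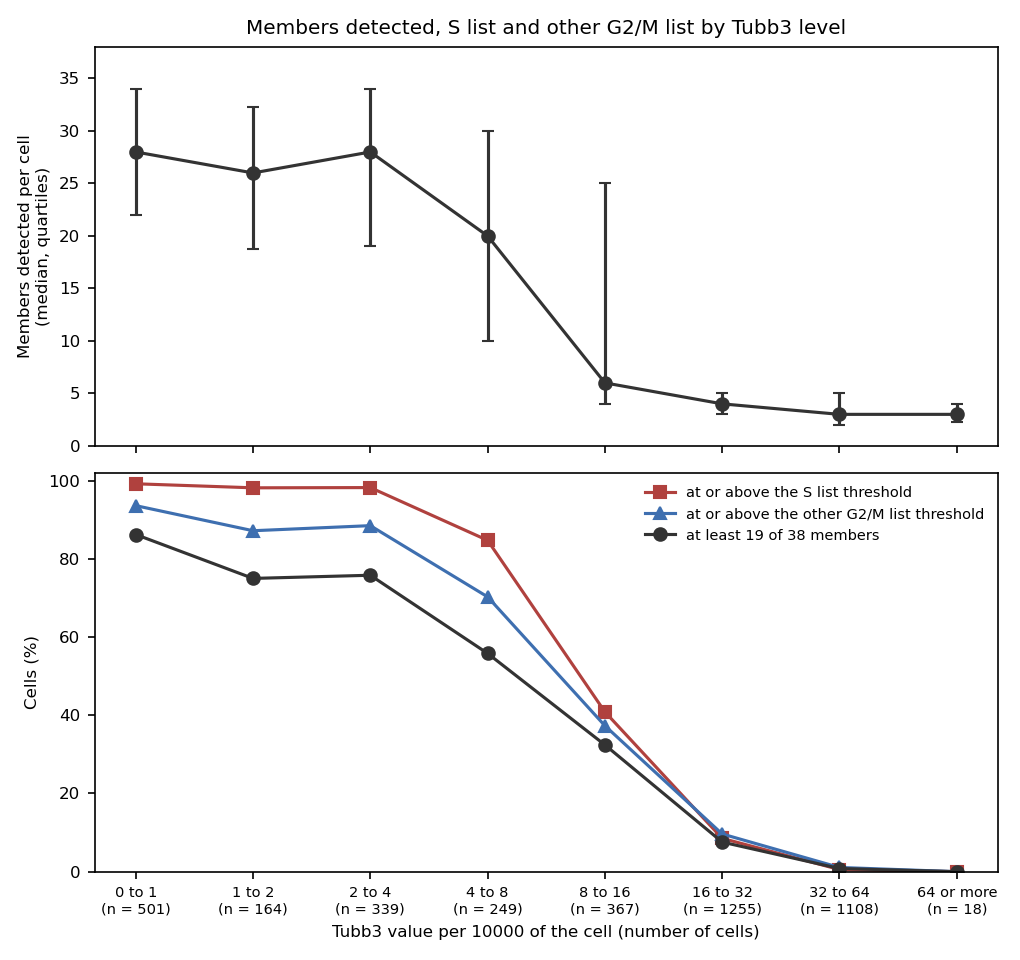
Top: members detected per cell (median with quartiles, of 38) by Tubb3 value per 10000 of the cell, from 0 to 1 up to 64 or more. Bottom: share of cells (percent) at or above the S phase list threshold, at or above the threshold of the other G2/M list and with at least 19 members. All 3 shares lie above 55% in the bin 4 to 8 and below 10% in the bin 16 to 32.

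Between Dlx2 cycling cells and Hes5 progenitors the members differed little. None of the 38 reached 2-fold in either direction, where 11.1% of 12005 genes were at least 2-fold lower and 3.10% at least 2-fold higher. Those shares include genes with as few as 30 summed values over both classes, whereas every member had at least 100. They were not matched to the members by level, so 0 of 38 does not show that the module is unusually stable. The median ratio was 0.898 (log2 -0.16, beside -0.12 over all genes), with 27 members below 1 and 11 above. The direction rested on which Dlx2 cells were taken. When the Dlx2 cycling cells with high Tubb3 were added (258 cells), the median ratio was 1.29 and all 38 members lay above 1. When those with Hes5 were added (289 cells), it was 1.07. In clusters built without cell cycle genes (352 and 1153 cells), it was 1.20. In none of these did any member reach 2-fold (with high Tubb3 added, 10.8% of 12365 genes were at least 2-fold lower and 4.26% at least 2-fold higher).

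The lowest ratios of Dlx2 cycling cells to Hes5 progenitors were those of Bub1b, Psrc1, Plk1 and Cks2. Bub1b stood at 0.458 per 10000 in Dlx2 cycling cells (SD 0.717) and 0.760 in Hes5 progenitors (SD 0.879), a ratio of 0.602. Psrc1, a microtubule-associated spindle protein, stood at 0.319 in Dlx2 cycling cells (SD 0.636) and 0.507 in Hes5 progenitors (SD 0.810), a ratio of 0.629. Plk1 had a ratio of 0.658 and Cks2 of 0.696. The highest were those of Ndc80, Top2a, Nusap1 and Kif20b. Ndc80 stood at 0.906 per 10000 in Dlx2 cycling cells (SD 1.13) and 0.684 in Hes5 progenitors (SD 0.818), a ratio of 1.32. Top2a had a ratio of 1.19, Nusap1 of 1.16 and Kif20b, a kinesin of cytokinesis, of 1.15.

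By role, all 7 cyclins and mitotic kinases lay below 1 (median 0.802), as did Ube2c, Cdc20 (0.778 and 0.726) and Pimreg (0.716). This reversed when the Dlx2 cycling cells with high Tubb3 were added (258 cells). All 7 cyclins and mitotic kinases then lay above 1 (median 1.30), as did Ube2c (1.81), Cdc20 (1.74) and Pimreg (1.27). In the 77 cells, medians were 0.943 for the chromosome proteins, 0.895 for the kinetochore genes, 0.954 for the spindle genes and 1.02 for the passenger complex. Against the 750 Hes5 progenitors that passed the same S phase threshold, the median over all members was 0.888. Among cells that passed the threshold of the other G2 and mitosis genes (67 Dlx2 cycling cells and 688 Hes5 progenitors), it was 0.919, still from Bub1b (0.621) to Ndc80 (1.37). The share of cells that passed was 87.0% in Dlx2 cycling cells (77.4% to 93.6%) and 90.2% in Hes5 progenitors (87.8% to 92.2%).

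The wider cycle programme gave similar values. Of the 52 other G2 and mitosis genes, 29 lay below 1 in Dlx2 cycling cells against Hes5 progenitors (median 0.912) and none reached 2-fold. Of that list Tubb4b, a beta-tubulin, stood at 3.30 per 10000 in Dlx2 cycling cells and 5.16 in Hes5 progenitors, and Cdca8, the borealin subunit of the passenger complex, stood at 3.48 in Dlx2 cycling cells and 4.65 in Hes5 progenitors. The S phase list had a median ratio of 1.05, with 22 of 34 above 1. Of the 34, Ung, the uracil-DNA glycosylase, was at least 2-fold lower (ratio 0.482), where 11.1% of all genes were. With Dlx2 cycling cells of high Tubb3 added (258 cells), both medians crossed 1. The other G2 and mitosis genes then had 1.25 (39 of 52 above 1) and the S phase list 0.772 (27 of 34 below 1). The S phase list was used to choose the Dlx2 cells, so these values are a description. Rrm2, a subunit of ribonucleotide reductase, stood at 9.94 in Dlx2 cycling cells and 6.29 in Hes5 progenitors, and Dut, the dUTPase, at 6.83 in Dlx2 cycling cells and 6.67 in Hes5 progenitors. In Tubb3-high neurons against Hes5 progenitors, 22.6% of 14889 genes were at least 2-fold lower. The same held for 48 of the 52 other G2 and mitosis genes (median ratio 0.155) and all 34 S phase genes (0.126).

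Among 12 regulators of the module, 5 were at least 2-fold lower in neurons than in Hes5 progenitors, where 22.6% of all genes were, and the median ratio was 0.642. Foxm1 stood at 0.0479 per 10000 in neurons, 0.199 in Dlx2 cycling cells and 0.334 in Hes5 progenitors. Mybl2 stood at 0.0293 in neurons, 0.438 in Dlx2 cycling cells and 0.421 in Hes5 progenitors. Nfyb, a subunit of NF-Y, stood at 1.21 in neurons, 1.02 in Dlx2 cycling cells and 1.36 in Hes5 progenitors. E2f4, the repressive partner of MuvB in resting cells, stood at 0.250 in neurons, 0.478 in Dlx2 cycling cells and 0.576 in Hes5 progenitors.

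Of 7 genes of cell cycle exit, 4 were at least 2-fold higher in Dlx2 cycling cells than in Hes5 progenitors, where 3.10% of all genes were, and 3 did not reach 2-fold. Cdkn1c, the inhibitor p57, stood at 7.63 per 10000 in neurons (SD 12.2), 17.9 in Dlx2 cycling cells (SD 27.0) and 2.11 in Hes5 progenitors (SD 5.58). Gadd45g, a growth arrest gene induced in neuronal precursors, stood at 1.31 per 10000 in neurons (SD 3.19), 10.3 in Dlx2 cycling cells (SD 11.7) and 0.578 in Hes5 progenitors (SD 2.75). Cdkn1b, the inhibitor p27, stood at 0.755 in neurons, 0.956 in Dlx2 cycling cells and 0.906 in Hes5 progenitors. Gadd45g was chosen after its values were seen, and it also belongs to the list of subventricular zone markers.

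Within the Hes5 progenitors the summed member level fell as the S phase list sum rose. Cells were not assigned to phases of the cycle. Cells were divided into 4 groups of equal size by their S phase list sum. From the lowest to the highest group the summed level of the 38 members was 154.9, 116.7, 76.8 and 57.2 per 10000. Ube2c stood at 11.8, 7.07, 2.66 and 1.0 per 10000, Cenpf at 12.0, 6.95, 3.75 and 1.99, and Top2a at 11.2, 7.56, 6.24 and 5.12. Hmgb2 stood at 25.8, 23.7, 19.9 and 17.8, and Tmpo at 4.70, 5.20, 4.73 and 4.95. The level of Ube2c and Cenpf was thus far lower in the group with most S phase transcripts, that of Top2a less so, and Tmpo stayed within a narrow range. Over the 763 cells the Pearson r of a member with the S phase list ran from -0.48 for Ube2c to 0.16 for Tmpo. All cells come from 1 library, and values were scaled to the cell's total, which couples genes.

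Replication-dependent histone genes mark S phase, and the sum of 58 of them gave another order. From the lowest to the highest of 4 equal groups of Hes5 progenitors by that sum, the summed member level was 93.4, 72.2, 131.7 and 105.6 per 10000, against the steady decline over the S phase list. Over single cells, 28 members had a Pearson r above 0 with the histone sum and 10 below 0. Top2a stood at 2.76, 2.60, 11.9 and 12.4 per 10000 over these groups, and Prc1 at 1.92, 1.34, 6.63 and 5.33. Cenpa ran the other way with 4.23, 3.30, 2.70 and 1.10, as did Ccnb2 with 2.04, 1.59, 1.06 and 0.539 and Cdc20 with 3.08, 2.04, 1.82 and 0.593. The B-type cyclins therefore differed: Ccnb1 stood at 2.68, 1.72, 2.75 and 1.35. Its Pearson r with the histone sum was -0.07, where that of Ccnb2 was -0.41. The r was 0.74 for Top2a, 0.57 for Prc1, 0.54 for Aurkb and 0.53 for Ndc80, and -0.43 for Cenpa and -0.33 for Cdc20.

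**Figure D4:**
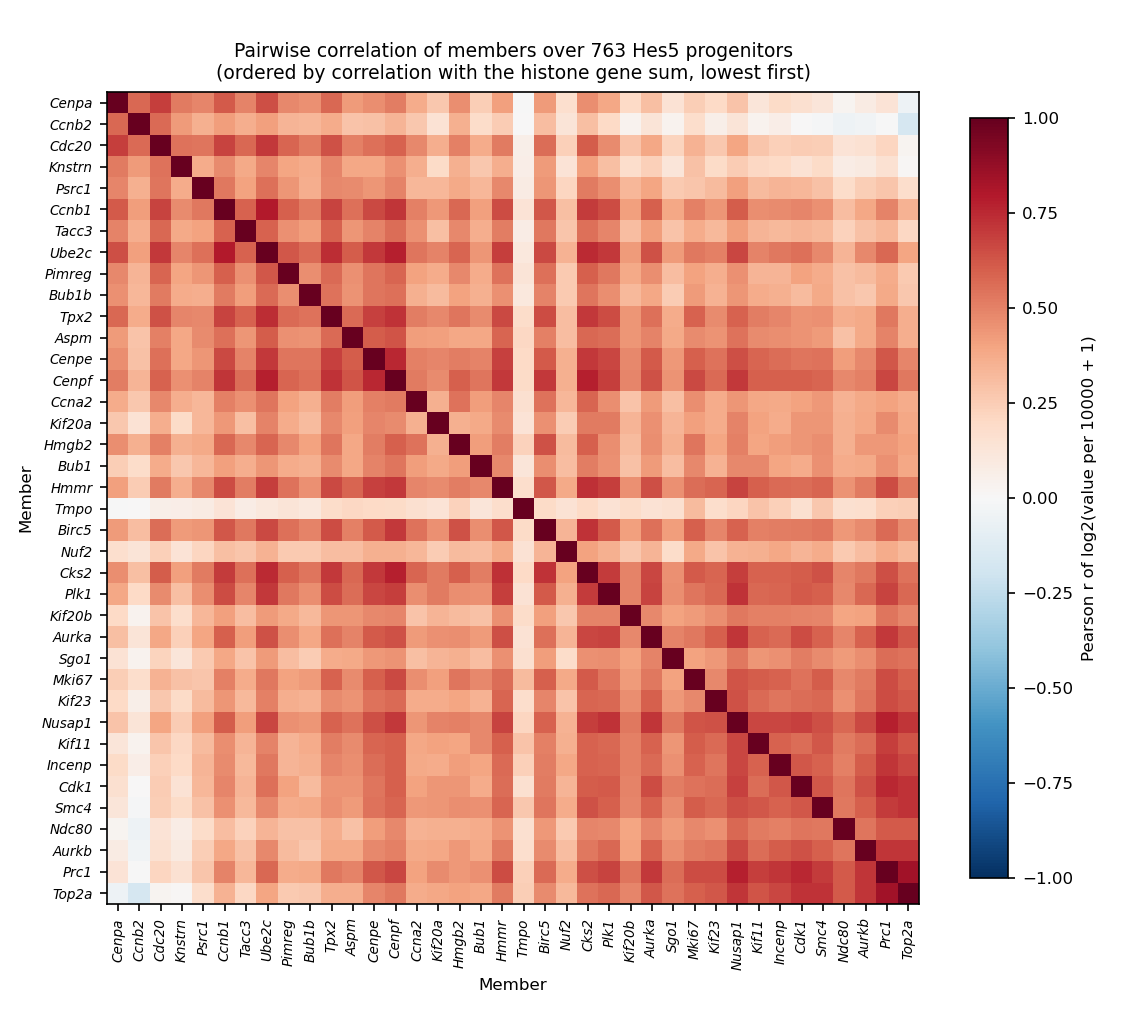
Pearson r of log2(value per 10000 + 1) between each pair of members over 763 Hes5 progenitors, with members ordered by their r with the histone gene sum from lowest (top and left) to highest. Top2a and Prc1 reach 0.84, Ccnb2 and Top2a -0.17, and the Tmpo row is pale throughout.

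Members were correlated with each other over single cells in all dividing groups. The median r over 703 pairs was 0.557 in the 201 Tubb3-high cells, 0.466 in the 77 Dlx2 cycling cells and 0.458 in the 763 Hes5 progenitors. Pairs of the same role had a median of 0.461 in Hes5 progenitors and pairs of different roles 0.458. The highest was 0.84 for Top2a and Prc1, followed by 0.79 for Ccnb1 and Ube2c. Of the 7 pairs below 0, 5 held Ccnb2, with Top2a, Ndc80, Aurkb, Smc4 and Prc1. Cenpf had the highest r with the mean of the other members, 0.87, and Tmpo the lowest, 0.24.

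The 10 genes outside the module whose pattern over Hes5 progenitors was most like the mean of the members, out of 6788 ranked, included Cdca8 (r 0.79), Spc25 (0.75), Ckap2l (0.74), Arl6ip1 (0.72), Kif22 (0.70), Kpna2 (0.69), H2afx (0.68), Knl1 (0.67) and Racgap1 (0.66). Of the 10, 6 belong to the list of other G2 and mitosis genes. The lowest r was -0.58 for Ung, the uracil-DNA glycosylase, followed by -0.49 for Mcm6 and -0.47 for Mcm4 of the replicative helicase. Arl6ip1 stood at 4.10 per 10000 in neurons, 3.39 in Dlx2 cycling cells and 4.59 in Hes5 progenitors.

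The relation to S phase genes within Hes5 progenitors also ordered how far members stood above them in the 201 Tubb3-high cells. The 10 members with the lowest r (Ube2c, Cenpe, Cenpf, Tpx2, Cdc20, Ccnb1, Plk1, Hmmr, Cenpa and Cks2) had a median ratio of 1.84 (range 1.40 to 2.25). The 10 with the highest r (Cdk1, Sgo1, Ccna2, Aurkb, Nuf2, Ndc80, Smc4, Hmgb2, Top2a and Tmpo) had 1.20 (1.03 to 1.42). In the 77 Dlx2 cycling cells against Hes5 progenitors the order was opposite, with medians of 0.813 and 1.01. That class excludes cells with high Tubb3, and the opposite order depended on this. With Dlx2 cycling cells of high Tubb3 added (258 cells), Cenpe had the highest ratio (1.87) and Sgo1 the lowest (1.01). Ube2c then stood at 1.81 and Cdc20 at 1.74, against 1.34 for Top2a and 1.04 for Tmpo. All these ratios and the r share the Hes5 progenitors, so these values are a description.

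**Figure D5:**
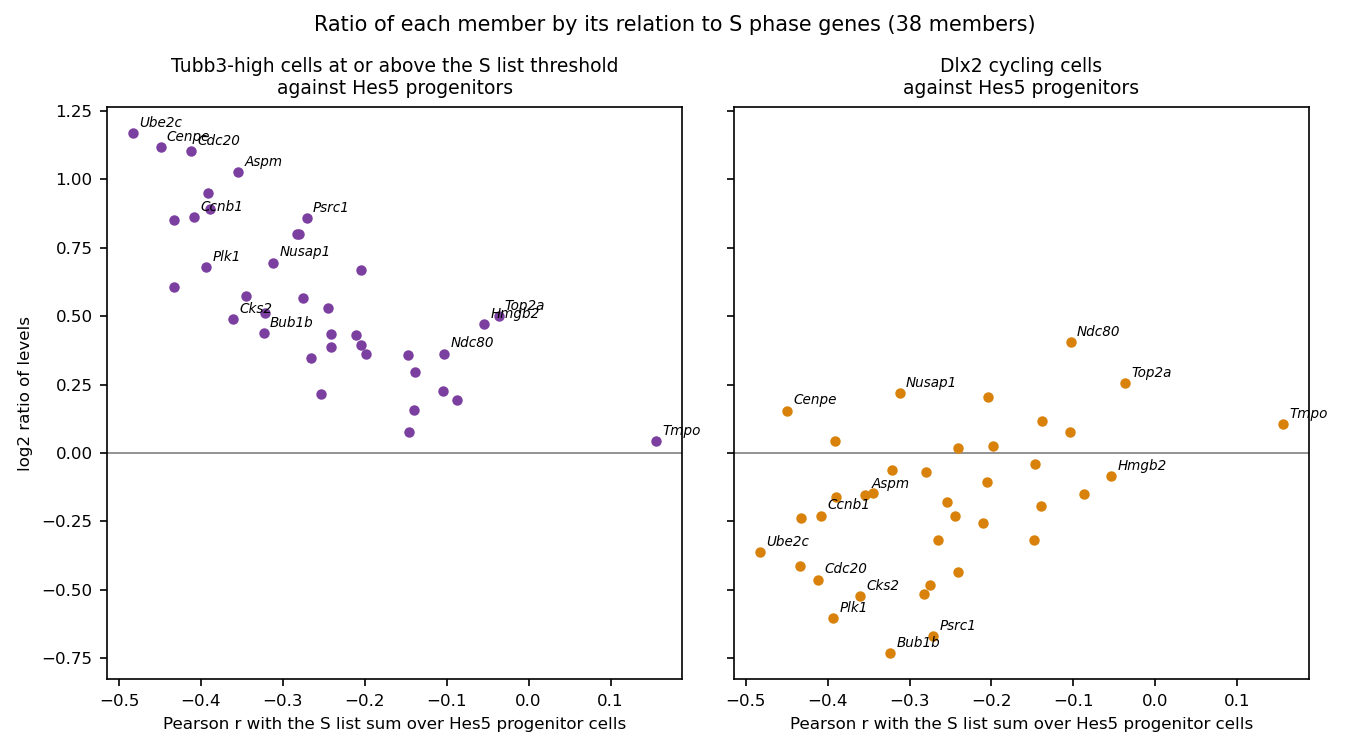
log2 ratio of levels for each of the 38 members (y axis) against its Pearson r with the S phase list sum over 763 Hes5 progenitors (x axis), for Tubb3-high cells at or above the S phase list threshold (left) and Dlx2 cycling cells (right), both against Hes5 progenitors. On the left every member lies above 0 and those with the lowest r, such as Ube2c and Cdc20, lie highest; on the right Bub1b, Psrc1 and Plk1 lie lowest and Ndc80 highest.

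In the 231 cells that passed both the Hes5 and the Dlx2 threshold, members were near their level in Hes5 progenitors, with a median ratio of 1.09 and none at 2-fold (1.41% of 12356 genes were at least 2-fold higher and 3.03% at least 2-fold lower). Their summed level was 105.7 per 10000 (SD 82.8), against 101.0 in Hes5 progenitors (SD 66.7). The S phase list was at a median ratio of 0.886 there. At least 19 members were found in 70.6% of these cells (64.2% to 76.4%).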

How the data were processed

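One pooled RNA library (MULTI-seq, 10x Chromium) was analysed as 1 sample. The deposited values are a score: whole numbers the authors made from molecule counts, by an unstated step. The submitters' processing notes list Cell Ranger 3.0.2, bcl2fastq and the build GRCm38. Cell totals lie between 10475 and 14196, and 223 of 4001 cells (5.57%) almost never hold the value 1, so count models, standard errors and tests were not used. How strand was handled in counting: not given in the sources used here.

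Levels are summed values per 10000. Class thresholds are Otsu cuts (scikit-image 0.26.0, 256 bins) of log2(value per 10000 + 1). Ratios of levels needed at least 30 summed values over both classes. Shares carry exact 95% binomial intervals. Ratios were tested on simulated Poisson counts of genes with many values. Simulated cells of a class shared the same profile and lacked the features of the deposited score. The simulation therefore checks the calculation only. Named genes were the 3 highest members per role in Hes5 progenitors, the 4 highest and lowest ratios, the 2 highest genes of a context list in Hes5 progenitors and the 10 most similar genes, 1 of which is not reported here. Members and lists were chosen with earlier results of these data known. Alternatives changed thresholds, scaling, filters, cells and clustering (scanpy 1.11.5). Doublets were called with Scrublet and kept in the main values. Promoters came from RefSeq on GRCm38.p6.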

Additional observations from a re-analysis of the deposited data

How the results depend on the processing

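The count of members at least 2-fold lower in Tubb3-high neurons was 38 of 38 against Hes5 progenitors and against Dlx2 cycling cells in all alternatives run, and the count past 2-fold between Dlx2 cycling cells and Hes5 progenitors was 0. Setting the minimum of summed values to 100 or to none could not change these counts, because all 38 members passed either way. Removing called doublets left the 77 Dlx2 cycling cells and the 763 Hes5 progenitors unchanged. Sizes moved. The median log2 ratio of neurons to Hes5 progenitors, -2.65 in the report, was -5.46 in clusters made without cell cycle genes, -5.54 in clusters made with all variable genes and -4.74 with neurons below the S phase threshold. Against Dlx2 cycling cells, -2.43 became -5.76, -5.65 and -4.48 under these settings. The last setting was chosen after seeing the data, as were Dlx2 cells of any Tubb3 or Hes5 level and the limit to cells high in other G2 and mitosis genes. The cause of the shifts with clustering was not tested. The median ratio of Dlx2 cycling cells to Hes5 progenitors ranged from 0.795 without the S phase requirement to 1.29 with any Tubb3 level, over 14 alternatives. With class thresholds 0.5 log2 units higher and the S phase threshold applied to both classes it was 1.0. Dropping the S phase requirement gives no value for the neurons against Hes5 progenitors or for the comparison with that threshold in both classes. Depth per cell is unknown, no cell could be tied to an embryo, and 77 Dlx2 cycling cells limit that class. No paired analysis was possible because there was 1 RNA library and no test.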
